A study of Homo sapiens with 24 samples.

Results

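MCF10A cells given an oligonucleotide against miR-671-5p were compared with cells given a non-targeting control oligonucleotide, 60 and 120 min after EGF. The 8 arrays of this comparison were taken by their labels from the 24 arrays of the series: si-miR-671 at 60 min and at 120 min and control at 60 min and at 120 min, with 2 arrays in each group. MCF10A is an established, non-tumorigenic human breast epithelial line. All groups were transfected with Oligofectamine and all received EGF, and their growth medium held insulin, cholera toxin, hydrocortisone, horse serum and EGF. RNA levels were read on Human Gene 1.0 ST arrays of Affymetrix, and the deposited values are log2 levels per probe set. Other arrays of the series were used in 2 further comparisons: the 8 si-miR-671 and control arrays at 0 and 30 min (called early here, against late for 60 and 120 min), which share no array with the late comparison, and the 4 arrays of cells transfected with an oligonucleotide against miR-20a (si-miR-20a) at 60 and 120 min. The labels call the replicates biological, and do not say whether they came from separate transfections. No arrays without EGF at 60 and 120 min and none of untransfected cells were among the groups, and in such bulk samples fewer cells of a type and less RNA per cell cannot be told apart.

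A microRNA guides a silencing complex to messenger RNAs through pairing with its seed, the bases near its 5′ end, and lowers their level or translation. An oligonucleotide against a microRNA is therefore used to ask which transcripts change when that microRNA is held down. EGF acts through the ERBB receptors and the MAP kinase cascade, and within the first hours it induces immediate early transcription factors, then feedback attenuators and secreted ligands. The mature strands addressed by the 2 oligonucleotides and the other strand of the miR-671 hairpin are printed to show that their seeds (bases 2 to 8, in capitals) differ. The sequences are RefSeq's, on GRCh38.p14: miR-671 lies on chromosome 7 (5p strand at chr7:151238449-151238471, plus strand) and miR-20a on chromosome 13 (chr13:91351072-91351094, plus strand).
hsa-miR-671-5p: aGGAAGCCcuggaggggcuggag
hsa-miR-671-3p: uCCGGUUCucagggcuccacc
hsa-miR-20a-5p: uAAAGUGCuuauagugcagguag
The mature microRNAs were not measured. A probe set for MIR671 itself was not used here. Of 3 genes chosen for their link to miR-671, none was called. CHPF2, the neighbour of MIR671, differed by -0.20 ± 0.07 on the log2 scale (SE of the fit, adjusted p = 0.115). FOXM1, a transcription factor of the late cell cycle and a reported miR-671-5p target, differed by 0.09 ± 0.10 (adjusted p = 0.671), and SMARCB1, a chromatin remodelling subunit also reported as a target, by 0.26 ± 0.07 (adjusted p = 0.065). For FOXM1 the levels were 7.31, 7.45, 7.45 and 7.65 on the si-miR-671 arrays, against 7.33, 7.40, 7.59 and 7.19 on the control arrays, and the groups overlapped.

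Replicates of the late groups correlated at 0.973 to 0.992 across probe sets, which are not independent of each other. The second array of si-miR-671 at 120 min stood apart from its partner. The SD of a single array, estimated from the replicate differences, was 0.305 in that group, against 0.163 in si-miR-671 at 60 min. On the first principal component of the 8 arrays, which held 38.1% of the variance, that second array lay at -26.3. The other 3 si-miR-671 arrays lay between 17.7 and 23.7. The 4 control arrays lay between -26.9 and 7.20, a range that held the second array. The second component held 31.1% and separated all 4 si-miR-671 arrays (6.62 to 31.4) from all 4 control arrays (-24.7 to -3.42). The basal keratin KRT5, a defining marker of this line, had a mean log2 level of 12.7 in si-miR-671 cells, against 12.7 in control cells. Of 6 basal markers measured 1 was called (16.7%, beside 10.2% of all genes). It was KRT14, the partner keratin of KRT5, which averaged 11.98 in si-miR-671 cells, against 11.73 in control cells (0.25 ± 0.06, adjusted p = 0.0324). Its call ended without any 1 of 6 arrays, all but control 120 min replicate 1 and si-miR-671 120 min replicate 2 (adjusted p 0.073 to 0.12). In some genes, among them ACAT1 and DCPH1, the si-miR-671 arrays lay near the control arrays at 0 and 30 min and near the si-miR-20a arrays at 60 and 120 min, and their values are given with the comparison of late and early arrays. The labels were taken as given and were not tested: were an early or late array mislabelled, the differences that rest on it would not be si-miR-671 minus control.

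Some named genes had low levels. The probe sets of 360 olfactory receptor genes, taken here as genes this line does not express, averaged 4.54 to 4.63 on the 8 arrays. Probe sets differ in their own background, so this is a rough mark and not a detection limit. The si-miR-671 means of VNN2, LINC01356 and CXCL10, the control means of ANXA10 and MYPN and both means of NXF4 and LUM lay below it. Their differences are given as measured, and neither their size nor their rank is read as an exact fold change.

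The late si-miR-671 cells had lower levels of acute phase, complement and antimicrobial genes and of several cytokines and matrix genes, and higher levels of 15 of 24 genes of DNA replication, 10 of 25 of mitosis and 9 of 30 histone genes. Large falls with both group means above the olfactory receptor mark included CHI3L1, SULF1 and SAA3P, and large rises of that kind SCEL and DPYSL3. In limma's fit with time as a block, 1978 of 19460 probe sets had a Benjamini-Hochberg adjusted p under 0.05 (called, 10.2% of those tested). Of them 831 were higher (4.27%) and 1147 lower (5.89%) in si-miR-671 cells. Most differences were small: the median size of a called difference was 0.44 on the log2 scale, and 457 probe sets (2.35%) were called and at least 1.5-fold apart, 150 of them higher and 307 lower. At least 2-fold, 10 were higher and 70 lower. Set against the late si-miR-20a arrays instead of control, the list medians were -0.17 (acute phase), -0.03 (cytokine) and -0.06 (matrix). They were 0.11 for the DNA replication list, 0.19 for mitosis and 0.20 for histones. Each was smaller in size than the median against control given below, so these list differences are not read as particular to si-miR-671.

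The number of calls moved with single arrays. Leaving out a si-miR-671 array at 60 min gave 832 (replicate 1) or 715 (replicate 2), and leaving out a control array at 60 min gave 877 (replicate 1) or 614 (replicate 2). At 120 min the loss of si-miR-671 replicate 1 gave 789 and that of control replicate 2 gave 1134. Leaving out si-miR-671 120 min replicate 2, the array that stood apart, gave 3230.

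Among the 15 genes with the largest rises, SCEL (sciellin), a precursor of the cornified envelope, led. Its levels were 6.84, 6.78, 6.94 and 6.95 on the si-miR-671 arrays (60 min, then 120 min), against 4.87, 5.23, 4.90 and 4.91 on the control arrays. The rule for naming these 15 genes required the groups to lie apart at both times. The difference was 1.90 ± 0.10 (3.74-fold, adjusted p = 0.000264). ANXA10, an annexin, had 6.06, 5.77, 5.72 and 5.87 in si-miR-671 cells, against 4.39, 4.43, 4.50 and 4.32 in control cells, a measured difference of 1.44 ± 0.09 (adjusted p = 0.000463), with the control level below the olfactory receptor mark. DPYSL3, a cytoskeletal protein of the collapsin response family, rose by 1.26 ± 0.09 (adjusted p = 0.000496). Its si-miR-671 arrays lay between 6.46 and 6.63, and its control arrays between 5.16 and 5.43.

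The other named rises included MAOB, a monoamine oxidase of the outer mitochondrial membrane (1.04 ± 0.10), KIF4A, a kinesin that acts on mitotic chromosomes (1.03 ± 0.09), and SREK1IP1, a gene of the splicing list (1.07 ± 0.09). The protease inhibitors SERPINB13 (1.02 ± 0.07) and SERPINB7 (0.98 ± 0.10) and the orphan receptor GPRC5A (0.98 ± 0.09) rose as well. SLC7A11, the cystine and glutamate exchanger of the cell surface, had 10.29, 10.42, 10.58 and 10.56 in si-miR-671 cells, against 9.30, 9.37, 9.64 and 9.59 in control cells. The rise was 0.98 ± 0.06 (adjusted p = 0.000463). AOX1, an aldehyde oxidase (1.01 ± 0.11), NARS2, the mitochondrial asparaginyl tRNA synthetase (0.98 ± 0.09), and the histone gene H2AC21 (0.98 ± 0.06) were others. NXF4 averaged 4.29 in si-miR-671 cells, against 3.29 in control cells, and MYPN 4.76 in si-miR-671 cells, against 3.67 in control cells, levels at or under the olfactory receptor mark in at least 1 group. Of these 15 genes, 14 were called in every fit that left out 1 array. MYPN was called in 1 of 8 such fits, and its adjusted p in the others ran from 0.06 to 0.13. Its call was kept without control 120 min replicate 1, and ended without each of the other 7 arrays. Its control arrays spread from 3.17 to 4.48.

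**Figure D1:**
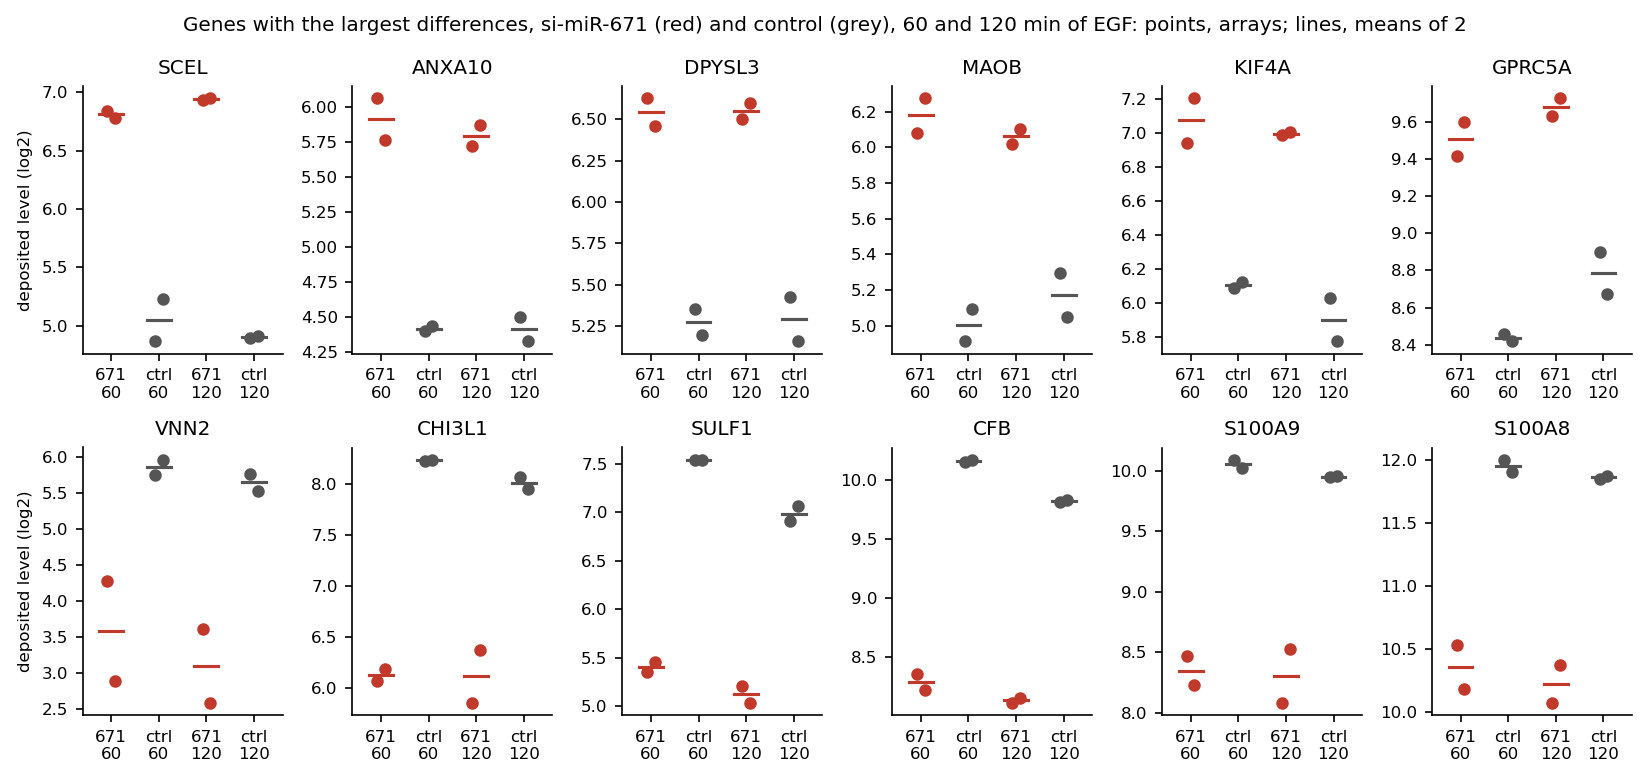
Deposited log2 levels of 6 genes with large rises (top row) and 6 with large falls (bottom row) on the 8 arrays, si-miR-671 left of control at 60 min and then at 120 min. Points are arrays and lines are the means of 2 arrays. In each of the 12 panels both si-miR-671 arrays lie on the same side of both control arrays at both times, which the rule for naming genes required.

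The 15 named falls were ranked by their measured difference. VNN2, a vanin that belongs to the pantetheinase family, had 4.29, 2.89, 3.61 and 2.59 on the si-miR-671 arrays, against 5.75, 5.97, 5.77 and 5.53 on the control arrays. The si-miR-671 replicates were more than 1 log2 unit apart at both times. That the groups did not overlap was required by the rule for naming genes. VNN2 fell (measured difference -2.41 ± 0.33, adjusted p = 0.00635), and its si-miR-671 arrays lay below the olfactory receptor mark. CHI3L1, a secreted chitinase-like glycoprotein of inflamed tissue, had 6.06, 6.18, 5.85 and 6.37 in si-miR-671 cells, against 8.23, 8.24, 8.07 and 7.95 in control cells, a difference of -2.01 ± 0.12 (4.02-fold, adjusted p = 0.000463). Its relative CHI3L2 differed by -1.84 ± 0.12 (adjusted p = 0.000463). SULF1, an endosulfatase that trims heparan sulfate outside the cell, had 5.35, 5.45, 5.21 and 5.03 in si-miR-671 cells, against 7.54, 7.54, 6.91 and 7.06 in control cells, a difference of -2.00 ± 0.09 (adjusted p = 0.000127).

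CFB, complement factor B of the alternative pathway, had 8.35, 8.22, 8.11 and 8.15 in si-miR-671 cells, against 10.15, 10.17, 9.81 and 9.83 in control cells. It fell by 1.79 ± 0.07 (adjusted p = 8.67e-05), and its 4 si-miR-671 arrays lay within 0.3 log2 units of each other. PLPP3, a phospholipid phosphatase of the cell surface, had 6.51, 6.47, 5.66 and 5.78 in si-miR-671 cells, against 8.19, 8.22, 7.55 and 7.48 in control cells. Both groups were lower at 120 min than at 60 min, and the difference between them was -1.75 ± 0.06 (adjusted p = 8.67e-05). S100A8 and S100A9, the subunits of calprotectin, differed by -1.62 ± 0.10 and -1.68 ± 0.11 (adjusted p = 0.000463 for each). CDH11, a cadherin of mesenchymal cells, differed by -1.82 ± 0.11, SAA3P, a serum amyloid A pseudogene, by -1.90 ± 0.08, and SNCAIP, which encodes synphilin-1, by -1.78 ± 0.09. LAMP3, a lysosomal membrane protein (-1.66 ± 0.12), GHR, the growth hormone receptor (-1.66 ± 0.13), PPP4R4, a regulatory subunit of protein phosphatase 4 (-1.62 ± 0.07), and LINC01356, a long non-coding RNA whose si-miR-671 mean lay below the olfactory receptor mark (-2.00 ± 0.23), were the others. All 15 were called in each of the 8 fits that left out 1 array.

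The lists that follow were described by up to 5 called members each, the largest by size, and members given beyond those were picked with their values known. The acute phase, complement and antimicrobial list had the most negative median of the lists. Of its 19 measured members 16 fell and none rose, with a median of -1.35 on the log2 scale. Over all 18417 genes measured 1095 fell, 791 rose and the median was 0.01. That is 10.2% called, the share to set beside the count of every list. Besides the genes above, the serum amyloids SAA1 (-1.53 ± 0.10) and SAA2 (-1.40 ± 0.08) fell, as did LCN2, the siderophore-binding lipocalin (-1.43 ± 0.16), and the complement proteases C1S (-1.11 ± 0.07) and C1R (-1.01 ± 0.07). SAA1 had 8.29, 7.99, 7.83 and 7.62 in si-miR-671 cells, against 9.56, 9.53, 9.36 and 9.39 in control cells, so that the groups did not overlap. C3, the central component of complement, had 10.59, 10.61, 10.47 and 10.75 in si-miR-671 cells, against 11.34, 11.33, 11.33 and 11.21 in control cells (-0.70 ± 0.08, adjusted p = 0.00324). The 3 members not called were SLPI (-0.42 ± 0.18), HP (-0.10 ± 0.16) and DEFB1 (0.03 ± 0.10). The count ran from 15 to 17 when arrays were left out in turn. SAA1 and SAA2 are near-identical copies whose probes may read each other's transcripts, and whether the SAA3P probes read them was not tested.

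Cytokines and NF-kappaB feedback genes split. Of 21 measured, 7 fell and 2 rose, with a median of -0.25. IL6 had 6.21, 6.16, 4.38 and 4.69 in si-miR-671 cells, against 7.47, 7.34, 6.0 and 5.88 in control cells, and fell by 1.31 ± 0.09 (adjusted p = 0.000577). The chemokines CCL2 (-1.26 ± 0.11) and CXCL1 (-1.22 ± 0.08), the adhesion receptor ICAM1 (-1.09 ± 0.15) and the granulocyte growth factor CSF3 (-0.95 ± 0.11) fell too. CXCL8, another neutrophil chemokine, did not pass the test: it had 8.65, 8.67, 7.65 and 8.08 in si-miR-671 cells, against 9.30, 8.95, 7.48 and 7.74 in control cells, lower at 60 min and overlapping at 120 min. The feedback inhibitors NFKBIA (-0.28 ± 0.12) and TNFAIP3 (0.03 ± 0.10) were not called. The 2 rises were LIF (0.33 ± 0.08, adjusted p = 0.0438) and IL24 (0.55 ± 0.10, adjusted p = 0.0203). The call of LIF ended whichever of the 8 arrays was left out (adjusted p 0.058 to 0.13). IL24 lost it without control 60 min replicate 1 (0.051), si-miR-671 120 min replicate 1 (0.065), si-miR-671 60 min replicate 1 (0.068) or si-miR-671 60 min replicate 2 (0.073).

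Genes of DNA replication rose together. Of 24 measured G1/S and replication genes 15 rose and none fell, with a median of 0.44, and all 24 had a positive difference. CCNE2, a cyclin of S phase entry, had 7.10, 7.25, 7.15 and 7.18 in si-miR-671 cells, against 6.51, 6.12, 6.34 and 6.35 in control cells (0.84 ± 0.09, adjusted p = 0.00301). CDC6, which loads the replicative helicase, had 8.22, 8.30, 8.17 and 8.12 in si-miR-671 cells, against 7.60, 7.52, 7.37 and 7.41 in control cells (0.73 ± 0.06, adjusted p = 0.0011). The helicase subunits MCM2, MCM3, MCM4, MCM5 and MCM6 rose by 0.44 to 0.66, and the clamp loader subunit RFC3 by 0.72 ± 0.11. CCNE1, the other cyclin E, was not called (0.08 ± 0.11). The count ran from 10 to 15 when arrays were left out in turn.

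Of 25 measured mitosis genes 10 rose and none fell, with a median of 0.30. MAD2L1, of the spindle checkpoint, had 8.80, 8.70, 8.68 and 8.71 in si-miR-671 cells, against 8.23, 8.18, 8.09 and 8.32 in control cells (0.52 ± 0.07, adjusted p = 0.0067). NDC80 of the kinetochore (0.55 ± 0.09) and TPX2 of the spindle (0.46 ± 0.07) rose as well. The cyclins CCNA2 (-0.05 ± 0.06) and CCNB2 (0.16 ± 0.09) were not called. The count depended on single arrays: it was 3 without control 60 min replicate 2, 4 without si-miR-671 60 min replicate 2 and 5 without si-miR-671 120 min replicate 1, and 8 or 9 without each of the others.

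Replication-dependent histone genes, transcribed in S phase, held 9 rises and 1 fall among 30 measured, with a median of 0.26. H2AC21 had 9.42, 9.46, 9.37 and 9.29 in si-miR-671 cells, against 8.55, 8.46, 8.26 and 8.35 in control cells (adjusted p = 0.000463). H4C3 (0.78 ± 0.07), the linker histones H1-5 (0.82 ± 0.08) and H1-1 (0.73 ± 0.09) and H3C12 (0.86 ± 0.11) rose as well. The fall was H2BC12 (-0.49 ± 0.11), which kept its call in 2 of the 8 fits that left out an array, the one lacking control 120 min replicate 1 and the one lacking si-miR-671 120 min replicate 2, and had an adjusted p of 0.085 to 0.12 without each of the other 6. Histone genes are near-identical copies, so a probe set may read several of them.

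Promoters of 3 genes from lists whose members moved together are printed because they hold regulatory letters that were searched in each list. Each is a window of 300 bases around the gene start in RefSeq on GRCh38.p14, 5′ to 3′ on the gene's strand, with the matches in capitals.
CDC6 (chr17:40287629-40287928, plus strand), E2F form TTTGGCGC: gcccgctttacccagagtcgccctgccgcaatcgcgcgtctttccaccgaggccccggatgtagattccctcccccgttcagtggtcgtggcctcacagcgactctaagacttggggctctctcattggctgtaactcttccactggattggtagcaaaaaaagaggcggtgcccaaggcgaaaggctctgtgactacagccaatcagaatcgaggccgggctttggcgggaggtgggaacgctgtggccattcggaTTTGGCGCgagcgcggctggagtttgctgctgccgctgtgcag
MAD2L1 (chr4:120066799-120067098, minus strand), TTTGAA and the CCAAT box on the opposite strand: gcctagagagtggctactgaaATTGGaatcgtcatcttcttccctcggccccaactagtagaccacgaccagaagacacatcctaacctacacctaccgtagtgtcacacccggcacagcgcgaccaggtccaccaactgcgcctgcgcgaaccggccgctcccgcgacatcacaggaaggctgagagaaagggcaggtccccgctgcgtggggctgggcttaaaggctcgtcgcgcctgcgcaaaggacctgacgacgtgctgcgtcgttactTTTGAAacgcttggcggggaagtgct
CHI3L1 (chr1:203186655-203186954, minus strand), TTNCNNAA: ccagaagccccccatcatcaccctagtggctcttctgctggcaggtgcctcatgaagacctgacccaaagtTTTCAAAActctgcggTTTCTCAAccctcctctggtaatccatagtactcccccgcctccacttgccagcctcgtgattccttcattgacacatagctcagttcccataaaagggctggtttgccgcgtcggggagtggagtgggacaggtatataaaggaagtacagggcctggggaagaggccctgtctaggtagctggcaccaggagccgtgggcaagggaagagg
Both strands were searched. Any of the E2F forms TTTGGCGC, TTTCCCGC and TTTCGCGC, which differ at the inner letters only, was found in 15 of the 21 G1/S genes with a window, against 3.30% of all 27305 genes. TTTGAA, the cell cycle homology region, was found in 13 of 20 mitosis genes, against 18.2% of all genes, and CCAAT in 17 of 20, against 39.7%. The C/EBP core TTNCNNAA was found in 6 of 9 acute phase genes, against 41.8%. A form of the NF-kappaB site was found in 0 of the 9 acute phase genes and in 10 of 17 cytokine and feedback genes, against 2.33%. Among called members with a window, an E2F form was found in 8 of 12 G1/S genes, and TTTGAA and CCAAT each in 5 of 7 mitosis genes. The NF-kappaB form was found in 3 of 6 called cytokine and feedback genes, and all 9 acute phase genes with a window were called. Whether any of these shares differ from those of all genes was not tested, and the acute phase list had windows for only 9 of its 19 measured members. Whether the letters mark the members that changed was not tested either. These letters describe the windows and are not binding sites measured in these cells.

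Among matrix, protease and adhesion genes more fell than rose. Of 32 measured 11 fell and 1 rose, with a median of -0.25. After SULF1 and CDH11 the largest were the collagen COL4A1 (-0.84 ± 0.07), the endosulfatase SULF2 (-0.78 ± 0.08) and the integrin ITGB6 (-0.51 ± 0.06). COL4A1 had 7.59, 7.73, 7.66 and 7.72 in si-miR-671 cells, against 8.45, 8.46, 8.65 and 8.50 in control cells. The rise was CCN2, a matricellular protein (0.42 ± 0.08, adjusted p = 0.0205), whose call ended without control 60 min replicate 1 (0.056), control 120 min replicate 2 (0.057), si-miR-671 60 min replicate 2 (0.067) or si-miR-671 120 min replicate 1 (0.07). The count of falls was 7 when either si-miR-671 60 min array or the first control 60 min array was left out, 6 when the second control 60 min array was, and 8 to 15 otherwise.

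Of 23 measured genes of the cornified envelope and keratinocyte differentiation 4 rose and 3 fell, with a median of 0.02. After SCEL the largest rises were the protease KLK5 (0.89 ± 0.08) and TGM1, the transglutaminase that crosslinks the envelope (0.87 ± 0.10). TGM1 had 8.17, 8.32, 8.14 and 8.35 in si-miR-671 cells, against 7.48, 7.56, 7.37 and 7.10 in control cells. The 3 falls, among them SPRR2A (-0.70 ± 0.13) and CNFN (-0.58 ± 0.14), were reduced to 0 to 2 by leaving out any 1 array. SPRR2A was not called without either 60 min control array, either si-miR-671 60 min array or si-miR-671 120 min replicate 1 (adjusted p 0.056 to 0.072), and CNFN was not called without any 1 of the 8 arrays (0.054 to 0.11).

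**Figure D2:**
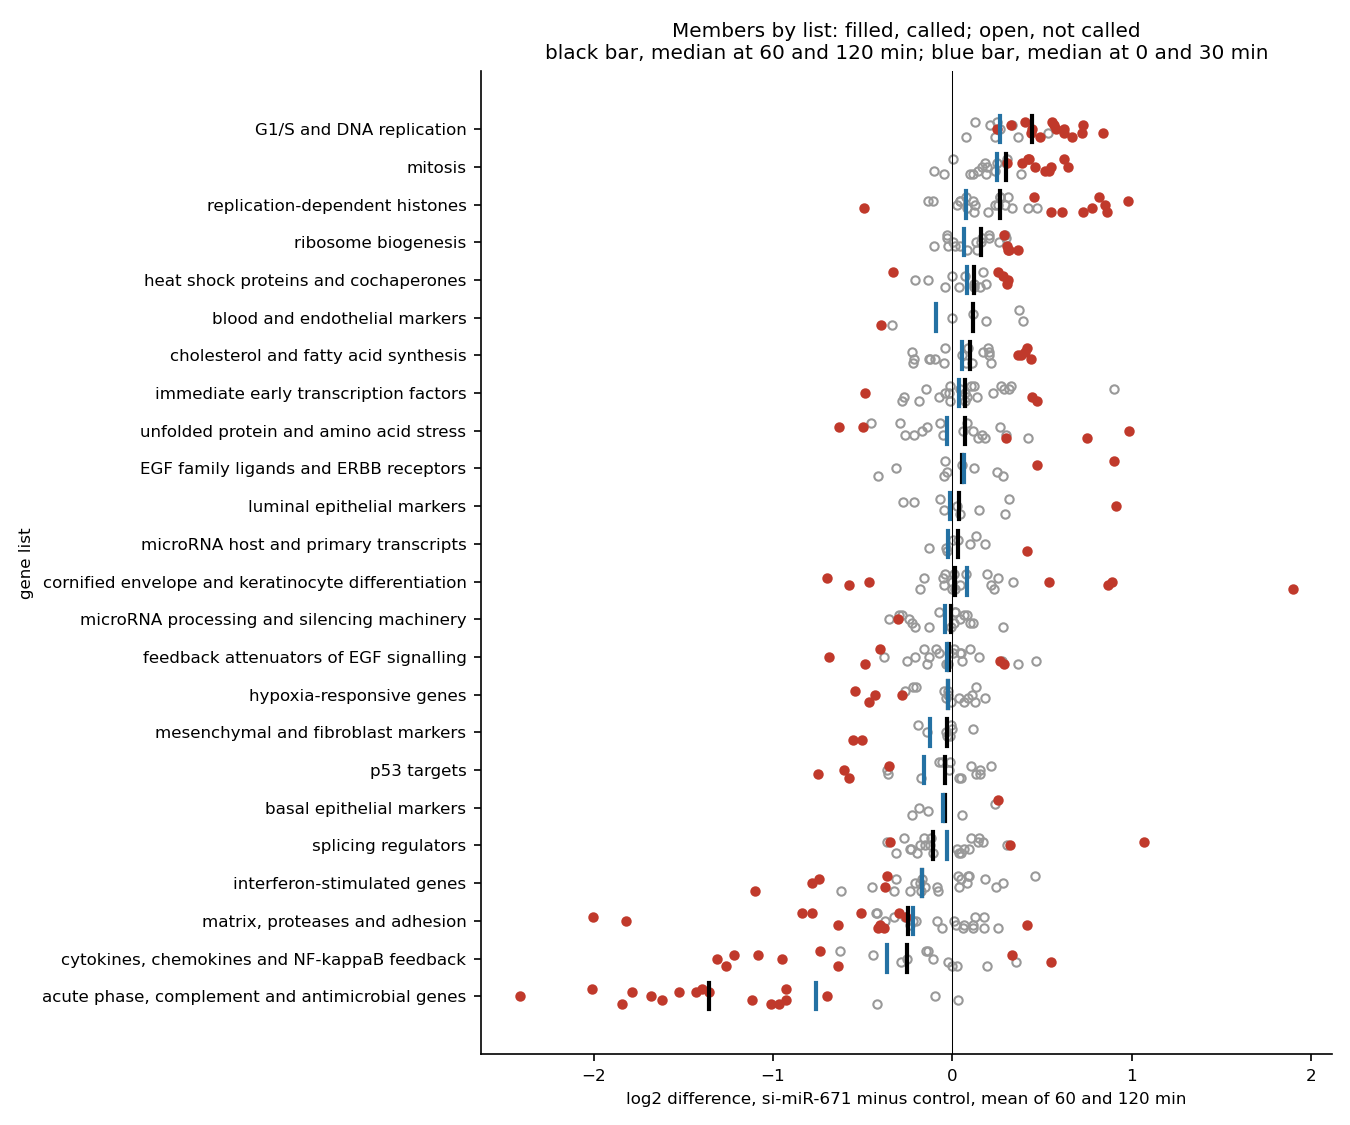
Log2 differences, si-miR-671 minus control over 60 and 120 min, of the members of 24 gene lists, ordered by the late median. Filled points are called, open points are not, black bars are the late medians and blue bars the medians of the same lists at 0 and 30 min. The acute phase list lies farthest left at -1.35 late and -0.76 early, and G1/S genes farthest right at 0.44 late and 0.27 early.

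Of 25 measured immediate early transcription factors 2 rose and 1 fell (12% called, against 10.2% of all genes), with a median of 0.07. FOS had 9.80, 9.76, 7.47 and 7.83 in si-miR-671 cells, against 10.31, 10.20, 7.62 and 7.48 in control cells, and was not called (-0.19 ± 0.14). The calls were NR4A1 (0.44 ± 0.09), ATF3 (0.47 ± 0.09) and KLF4 (-0.49 ± 0.10), and none of them held in every fit without 1 array. NR4A1 lost its call without control 120 min replicate 2, control 60 min replicate 2, si-miR-671 120 min replicate 1 or either si-miR-671 60 min array (adjusted p 0.053 to 0.088). ATF3 lost it without control 120 min replicate 2, control 60 min replicate 2, si-miR-671 120 min replicate 1 or si-miR-671 60 min replicate 1 (0.052 to 0.074), and KLF4 without the same first 3 arrays or si-miR-671 60 min replicate 2 (0.051 to 0.084).

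EGR3, an immediate early transcription factor, differed by time. It had 9.44 and 9.48 in si-miR-671 cells at 60 min, against 9.39 and 9.26 in control cells. At 120 min it had 8.93 and 8.98 in si-miR-671 cells, against 7.20 and 7.35 in control cells. The difference was 0.13 ± 0.10 at 60 min (adjusted p = 0.488) and 1.68 ± 0.10 at 120 min (adjusted p = 0.00398). The change of the difference between the times, 1.54 ± 0.14, did not pass the test over all probe sets (adjusted p = 0.344). The si-miR-20a arrays had 9.44 and 9.24 at 60 min and 8.49 and 8.66 at 120 min. GPLD1, a phospholipase that releases anchored proteins, was another of the 8 genes with the smallest p for this change. It had 6.96 and 6.91 in si-miR-671 cells at 60 min, against 8.09 and 8.02 in control cells, and 7.95 and 8.05 in si-miR-671 cells at 120 min, against 7.58 and 7.77 in control cells. Its change of 1.45 ± 0.15 did not pass either (adjusted p = 0.344).

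At 60 min alone 426 probe sets were called (2.19%), 123 higher (0.632%) and 303 lower (1.56%). At 120 min alone 277 were called (1.42%), 109 higher (0.56%) and 168 lower (0.863%). The test of the change of the difference between 60 and 120 min called 0 probe sets (0%) in limma's fit, with 1297 at an unadjusted p under 0.05. It called 1 with a prior variance that followed the mean level, and 359 without si-miR-671 120 min replicate 1, in which the lone second array stood for its group. At 60 min alone the count was 0 without si-miR-671 60 min replicate 2, 4 to 8 without each other 60 min array, 189 without either control 120 min array and 612 without either si-miR-671 120 min array. At 120 min alone it was 6 to 52 without any array but si-miR-671 120 min replicate 1, and 471 without that one.

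Ligands of the EGF family were measured with their receptors. Of 11 members 2 rose and none fell (18.2% called, against 10.2% of all genes). NRG1, a ligand of ERBB3 and ERBB4, had 7.78 and 8.0 at 60 min and 8.84 and 9.0 at 120 min in si-miR-671 cells, against 6.79 and 6.80 at 60 min and 8.15 and 8.27 at 120 min in control cells (0.90 ± 0.10, adjusted p = 0.00339). HBEGF, a ligand of EGFR, had 10.79, 10.86, 10.69 and 10.55 in si-miR-671 cells, against 10.44, 10.36, 10.04 and 10.15 in control cells (0.47 ± 0.07, adjusted p = 0.00774). EGFR itself differed by -0.31 ± 0.09 (adjusted p = 0.0705). Among 26 feedback attenuators 3 fell and 2 rose (19.2% called). LRIG1, which promotes degradation of ERBB receptors, had 7.97, 8.09, 7.86 and 8.02 in si-miR-671 cells, against 8.67, 8.75, 8.68 and 8.60 in control cells (-0.68 ± 0.07, adjusted p = 0.00214). The other 4 calls, the falls of SPRY1 and ERRFI1 and the rises of GADD45A and GADD45B, were of 0.48 or less and held in 4, 1, 1 and 2 of the 8 fits without an array.

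Smaller counts came from the remaining lists. The called share was 18.5% of interferon-stimulated genes, 22.2% of p53 targets and 21.1% of hypoxia-responsive genes. It was 22.7% of the stress genes, beside 10.2% of all genes. All 5 calls among 27 interferon-stimulated genes were falls, among them those of the chemokine CXCL10 (-1.10 ± 0.10) and the guanylate-binding protein GBP2 (-0.74 ± 0.06). This count was 2 when either si-miR-671 60 min array, si-miR-671 120 min replicate 1 or the second control array of either time was left out, 3 when control 60 min replicate 1 was, and 4 or 6 for the other 2 arrays. The median of the interferon list was -0.39 at 60 min and 0.06 at 120 min, against -0.004 and 0.01 over all genes. All 4 calls among 18 p53 targets and all 4 among 19 hypoxia-responsive genes were falls, with SESN1 (-0.75 ± 0.10), FAS (-0.58 ± 0.09) and VEGFA (-0.54 ± 0.08) called in every fit without 1 array. The p53 count was 6 without si-miR-671 120 min replicate 2 and 3 or 4 without the others. The median of the p53 list was -0.10 at 60 min and 0.005 at 120 min. ASNS, asparagine synthetase (0.75 ± 0.08), and CEBPB, a transcription factor of acute phase genes (-0.63 ± 0.09), were, besides SLC7A11, the largest of the 3 rises and 2 falls among 22 genes of protein and amino acid stress. CEBPB had 9.09, 9.17, 9.48 and 9.64 in si-miR-671 cells, against 9.88, 9.81, 9.95 and 10.27 in control cells. Both ASNS and CEBPB were called in every fit without 1 array, and the 2 falls of that list became 5 without si-miR-671 120 min replicate 2 and 1 without either 60 min control array, either si-miR-671 60 min array or si-miR-671 120 min replicate 1.

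Of 25 splicing regulators 2 rose and 1 fell (12% called, against 10.2% of all genes), SREK1IP1 alone in every fit without 1 array. The called share was 22.7% of the cholesterol and fatty acid genes, 22.7% of the ribosome biogenesis genes and 31.25% of the heat shock genes. It was 5.26% of the microRNA machinery genes and 11.1% of the microRNA host and primary transcripts. Calls in several lists rested on small differences and did not outlast the loss of arrays. All 5 of 22 cholesterol and fatty acid genes and all 5 of 22 ribosome biogenesis genes that were called rose, by 0.29 to 0.44. Among 16 heat shock genes 4 rose and 1 fell. These 3 counts of rises were 0 without control 60 min replicate 2 or si-miR-671 60 min replicate 2, and 0 to 2 without control 60 min replicate 1, si-miR-671 60 min replicate 1 or si-miR-671 120 min replicate 1. Without control 120 min replicate 2 the rises were 2 cholesterol and fatty acid, 3 ribosome biogenesis and 1 heat shock gene. Of 176 small nucleolar RNAs 7 rose and 6 fell, 13 or 7.39% of those measured, with a median of -0.06. Those counts were 12 and 13 without si-miR-671 120 min replicate 2, and 0 to 5 rises and 0 to 2 falls without each of the others. Of 19 genes of the microRNA machinery only AGO3 was called (-0.30 ± 0.07, adjusted p = 0.0387), and its call ended without any array but si-miR-671 120 min replicate 2 (adjusted p 0.06 to 0.12). MIR23A (0.42 ± 0.10, adjusted p = 0.0397) was the 1 call among 9 microRNA host and primary transcripts, and its call ended without any 1 of the 8 arrays (adjusted p 0.054 to 0.12).

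Markers of other cell types moved in single genes. The called share was 10% of luminal, 20% of mesenchymal and 14.3% of blood and endothelial markers, beside 10.2% of all genes. FOXA1, a transcription factor of luminal cells, was the 1 call among 10 luminal markers. It had 7.15, 7.30, 7.62 and 7.72 in si-miR-671 cells, against 6.40, 6.17, 6.83 and 6.74 in control cells (0.91 ± 0.08, adjusted p = 0.00121). Among 10 mesenchymal markers ACTA2 (-0.56 ± 0.08) and LUM (-0.50 ± 0.11) fell, LUM losing its call without any 1 of 6 arrays (adjusted p 0.051 to 0.11), VIM was not called (-0.19 ± 0.07), and the defining genes COL1A1, COL3A1 and PDGFRA were not called (adjusted p 0.930, 0.984 and 0.965). CD14 (-0.40 ± 0.07) was the 1 call among 7 blood and endothelial markers, and it ended without either 60 min control array or si-miR-671 60 min replicate 2 (adjusted p 0.053 to 0.058). Whether these markers had a part in the falls of matrix and acute phase genes was not tested.

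The early arrays put the same question to cells that had received EGF for 0 or 30 min. There 442 probe sets were called (2.27%), 203 higher (1.04%) and 239 lower (1.23%). Of the late calls 312 were also early calls, which is 15.8% of the late and 70.6% of the early list, and 311 of the 312 had the same direction. Of the 1978 late calls 1667 had the same sign early, where the median size of their difference was 0.17. Of the 15 named rises 11 were called early, and of the 15 named falls 13. The acute phase list held 15 early falls of 19, the mitosis and G1/S lists 6 early rises each, and the histone list none. The cytokine list held 9 early falls of 21, against 7 late. Its median was -0.36 early and -0.25 late, with -0.47 at 60 min and -0.08 at 120 min. The matrix list held 10 early falls of 32, against 11 late.

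The late difference was tested against the early one in a fit over these 16 arrays. It called 138 probe sets (0.709%), 40 with a more positive (0.206%) and 98 with a more negative late difference (0.504%). In 75 of them the late difference had the sign of the early one and was larger, in 55 the signs were opposite and the late one was larger, and in 8 the early one was larger. Of the 15 named falls 10 were among them. The named falls were picked for their late size, and all 15 were larger late than early. CHI3L1 differed by -2.01 late and by -0.88 early, SAA3P by -1.90 and -0.68, CFB by -1.79 and -0.89 and PLPP3 by -1.75 and -0.85. SCEL, at 1.90 late and 1.16 early, was not called in this test (adjusted p = 0.125). The count was 9 to 76 without any 1 of 14 arrays, 229 without control 120 min replicate 1 and 363 without si-miR-671 120 min replicate 2.

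**Figure D3:**
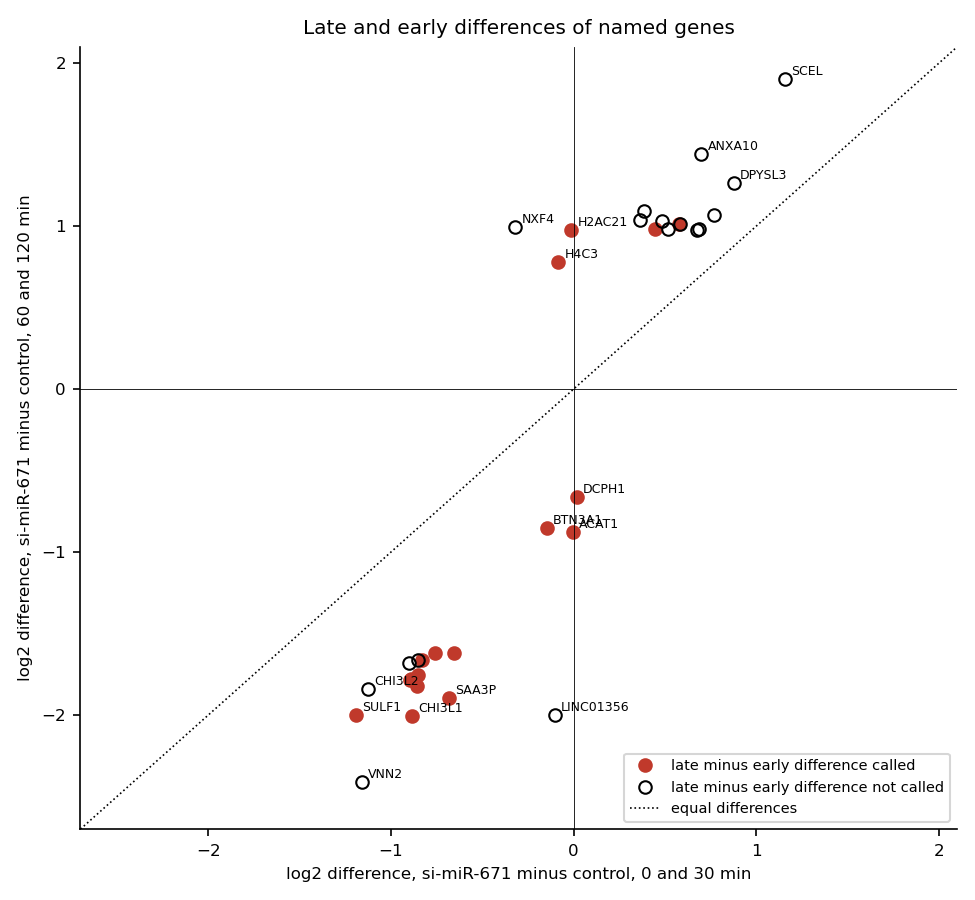
Log2 difference, si-miR-671 minus control, at 60 and 120 min (vertical) against that at 0 and 30 min (horizontal) for the 15 largest rises, the 15 largest falls and the 8 genes with the smallest p for late minus early. Filled points passed the test of late minus early, open points did not, and the dotted line marks equal differences. ACAT1, DCPH1 and H2AC21 lie near 0 early and away from 0 late.

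Some genes differed late and not early. ACAT1, the mitochondrial acetoacetyl-CoA thiolase, had 9.45, 9.29, 9.22 and 9.27 on the late si-miR-671 arrays, against 10.24, 10.32, 10.09 and 10.09 on the late control arrays (-0.88 ± 0.07, adjusted p = 0.000778). On the early arrays its levels lay between 10.14 and 10.19 in si-miR-671 cells, against 10.12 and 10.25 in control cells (-0.01 ± 0.05). The early si-miR-671 arrays lay within the control range and all 4 late ones below it. The si-miR-20a arrays lay between 9.15 and 9.38 early and between 9.28 and 9.38 late. DCPH1 had the same arrangement: 8.55 to 8.61 on the late si-miR-671 arrays and 9.20 to 9.36 on the early ones, 8.65 to 8.78 on the late si-miR-20a arrays and 8.46 to 8.78 on the early ones, and in control cells 9.07 to 9.36 late and 9.16 to 9.29 early. MORN2, chosen after its values were seen, had late si-miR-671 levels of 6.44 to 6.86 and early ones of 7.55 to 7.69, against si-miR-20a levels of 6.13 to 6.78 late and 6.23 to 7.07 early, and control levels of 7.05 to 7.82 late and 7.55 to 7.59 early. Its late difference was called (-0.85 ± 0.17, adjusted p = 0.0260) and its late minus early difference was not (adjusted p = 0.0791).

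In these 3 genes the late si-miR-671 mean lay nearer to the si-miR-20a mean, and the early si-miR-671 mean nearer to the control mean. Of the 138 probe sets called for late minus early, 73 had an early difference under 0.2 in size. In 72 of the 73 the late si-miR-671 mean was nearer to the late si-miR-20a mean than to the late control mean. The 73 were picked for a late difference from control unlike the early one, so a late distance from control was built in. In 119 of the 138 the control cells themselves moved by under 0.3 between the early and late arrays. The matching shares over all probe sets were not counted, so neither count is read as particular to these genes. Other genes kept si-miR-671 and si-miR-20a apart at every time. ZNFX1 and NKIRAS1, both chosen after their values were seen, are examples. ZNFX1, a zinc finger helicase, had 8.47 to 8.74 in late and 8.25 to 8.28 in early si-miR-671 cells, against 9.20 to 9.32 in late and 9.09 to 9.14 in early si-miR-20a cells. NKIRAS1, a Ras-like inhibitor of NF-kappaB, had 7.88 to 8.05 in late and 7.46 to 7.86 in early si-miR-671 cells, against 8.57 to 8.76 in late and 8.42 to 8.59 in early si-miR-20a cells. No overlap was seen in either gene between these transfections. The labels give no preparation date or batch, so whether early and late cells were transfected together was not tested.

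**Figure D4:**
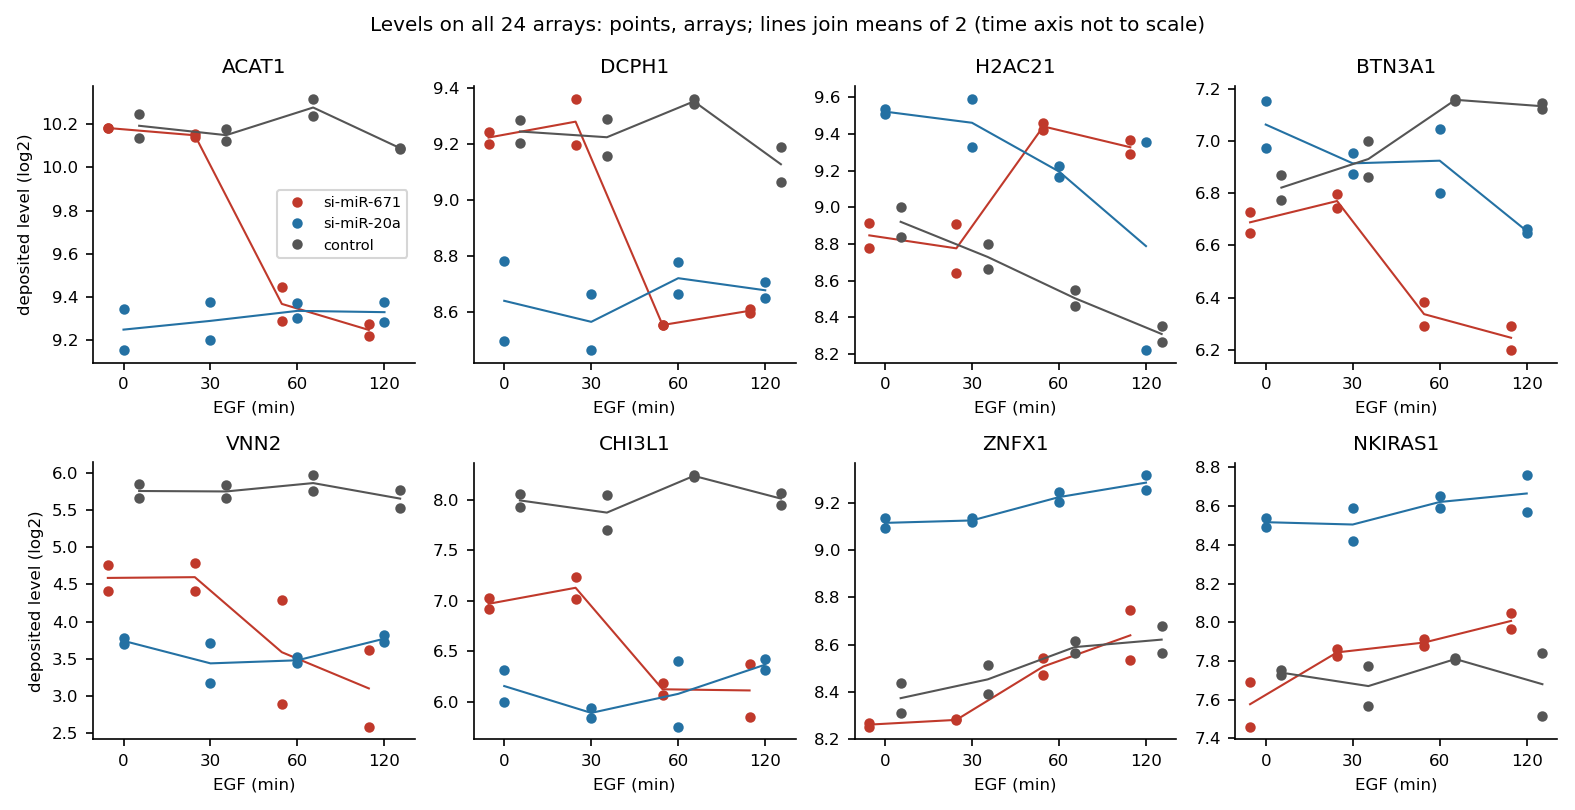
Deposited log2 levels of 8 genes on all 24 arrays over 0, 30, 60 and 120 min of EGF (time axis not to scale), for si-miR-671 (red), si-miR-20a (blue) and control (grey). Points are arrays and lines join means of 2. In ACAT1 and DCPH1 the si-miR-671 arrays lie near the controls at 0 and 30 min and near si-miR-20a at 60 and 120 min, and in ZNFX1 and NKIRAS1 the si-miR-671 arrays lie below the si-miR-20a arrays at all 4 times.

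Of 30 histone genes 3, H2AC21, H4C3 and H2AC8, passed the test of late minus early, beside 0.709% of all probe sets. All 3 had a more positive late difference, and the median over the 30 was 0.19. H2AC21 differed by 0.98 late and -0.01 early (late minus early 0.99, adjusted p = 0.00707), and H4C3 by 0.78 late and -0.08 early (0.86, adjusted p = 0.00707). In control cells H2AC21 had 8.26 to 8.55 late and 8.66 to 9.0 early. In si-miR-671 cells it had 9.29 to 9.46 late and 8.64 to 8.91 early. The si-miR-20a arrays had 8.22 to 9.36 late and 9.33 to 9.59 early in H2AC21, and 8.54 to 9.04 late and 9.01 to 9.08 early in H4C3. In both genes the si-miR-671 mean lay nearer to the control mean early and nearer to the si-miR-20a mean late, as in ACAT1. Whether this was a change over time in EGF was not tested. BTN3A1, a butyrophilin read by gamma delta T cells, had 6.20 to 6.38 late in si-miR-671 cells, 6.65 to 7.05 late in si-miR-20a cells and 7.12 to 7.16 late in control cells. Its late difference from control was -0.85 ± 0.06 and its early one -0.15 ± 0.06. HBEGF differed by 0.47 late and 0.02 early (late minus early 0.46, adjusted p = 0.0409).

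The last comparison set the late si-miR-671 arrays against the late si-miR-20a arrays, to see which differences from control were also differences from another targeting oligonucleotide. In limma's fit 0 of 19460 probe sets were called (0%), and 1253 had an unadjusted p under 0.05. With the spread estimated over all 24 arrays 219 were called, 40 higher and 179 lower in si-miR-671 cells, and 9 with a prior variance that followed the mean level. No call does not show that the cells were alike. The 95% interval of the difference included 0 for 12 of the 15 named rises and for 10 of the 15 named falls. For SCEL the difference from si-miR-20a was -0.16 (95% interval -0.47 to 0.15), beside 1.90 from control, and for CHI3L1 it was -0.11 (-0.51 to 0.30), beside -2.01. These 2 differences share the si-miR-671 arrays.

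**Figure D5:**
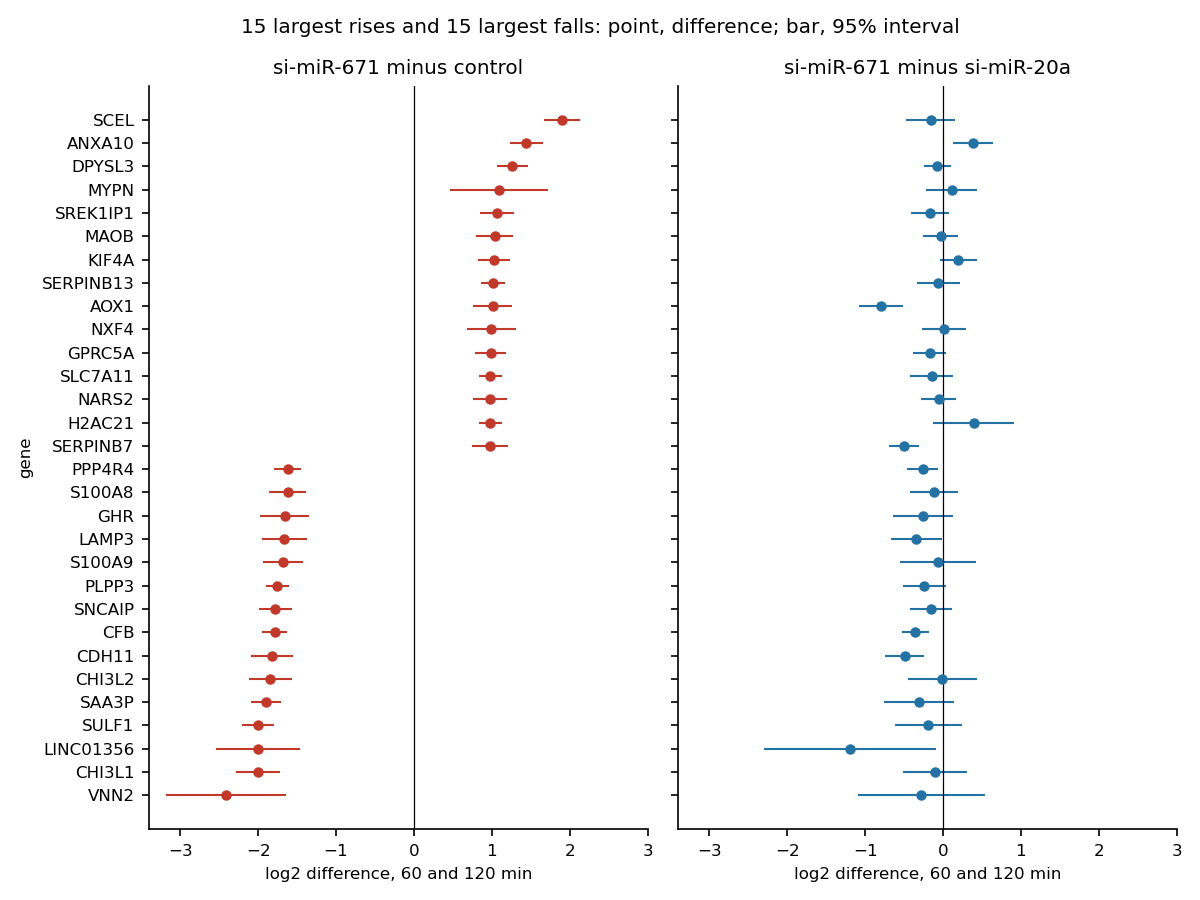
Log2 differences over 60 and 120 min of the 15 largest rises and 15 largest falls, si-miR-671 minus control (left) and si-miR-671 minus si-miR-20a (right). Points are differences and bars their 95% intervals. On the right most intervals include 0, and AOX1, SERPINB7, CDH11, CFB and ANXA10 are among those that do not.

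AOX1 had the widest departure among the rises. It had 6.64, 6.97, 6.74 and 6.67 in si-miR-671 cells, against a mean of 7.55 in si-miR-20a cells and 5.67, 5.76, 5.94 and 5.60 in control cells, so that si-miR-671 lay between them (-0.79 from si-miR-20a, 95% interval -1.08 to -0.51, adjusted p = 0.229). SERPINB7 lay 0.50 below si-miR-20a as well (-0.50, -0.69 to -0.30). ANXA10 lay above it (0.39, 0.13 to 0.65). Among the falls CDH11 (-0.49, -0.74 to -0.24), CFB (-0.36, -0.53 to -0.18) and LINC01356 (-1.19, -2.29 to -0.09) were lower in si-miR-671 than in si-miR-20a cells by their intervals, as were PPP4R4 and LAMP3. CXCL10, an interferon-induced chemokine, differed by -0.92 (-1.18 to -0.66), and IL6 by -0.56 (-0.82 to -0.30). ZNFX1 and NKIRAS1 differed by -0.68 ± 0.08 and -0.69 ± 0.08 from si-miR-20a (adjusted p = 0.138 for each), and by -0.03 ± 0.07 and 0.21 ± 0.09 from control. None of these differences from si-miR-20a passed the adjusted test.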

How the data were processed

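The deposited values are log2 expression levels per probe set, made by the authors with Affymetrix Expression Console, per the submitters' processing notes (its version and the normalization are not given in the sources used here). Across 24 arrays the table held 33297 probe sets with medians of 6.56 to 6.57. The 19460 probe sets that GEO's platform annotation pairs with 1 symbol (18417 genes) were tested; 1754 with several symbols and 12083 unlisted were left out. Genes with several probe sets are shown by the one of highest mean. Differences were fitted with limma 3.58.1 in R 4.3.3 (time plus transfection, eBayes), with Benjamini-Hochberg adjustment over all 19460, and called at an adjusted p under 0.05; ± is the SE of the fit. With 2 arrays a group, p-values measure the spread between these arrays, which may be technical. Named genes were the 15 called with the largest rise and the 15 with the largest fall whose groups lay apart at both times, up to 5 called members a list, the 8 smallest p of each change over time, and CHPF2, FOXM1 and SMARCB1. Members and lists were chosen with earlier results of these data known. Fits were tested on simulated data. Alternatives were each array left out, the replicate number as a block, filters, centring, quantile normalization, array weights, a prior trend and all 24 arrays together. Same-numbered replicates deviated with correlations of -0.314 to 0.144 over 6 pairs of groups. The labels do not say whether same-numbered arrays were prepared together, and these correlations cannot settle it. The numbers were not taken to pair the arrays.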

Additional observations from a re-analysis of the deposited data

Results flagged for a closer look

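For 21 named genes the difference between si-miR-671 and control cells at 60 and 120 min differed from that at 0 and 30 min, by limma's test of the change (adjusted p under 0.05). Among acute phase genes the change, late minus early on the log2 scale, was -1.12 for CHI3L1, -1.21 for SAA3P, -0.89 for CFB and -0.97 for S100A8. Among other large falls it was -0.81 for SULF1, -0.96 for CDH11, -0.89 for SNCAIP, -0.90 for PLPP3, -0.84 for LAMP3 and -0.86 for PPP4R4. CXCL1 changed by -0.51, GBP2 by -0.41, BTN3A1 by -0.71, ACAT1 by -0.87 and DCPH1 by -0.68. In the positive direction H2AC21 changed by 0.99, H4C3 by 0.86, LOC284379 by 0.67, SLC7A11 by 0.54, HBEGF by 0.46 and SERPINB13 by 0.44.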

How the results depend on the processing

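Over 60 and 120 min the 1978 calls became 614 to 3230 when arrays were left out in turn, 2999 with 12 group means over 24 arrays, 5102 with array weights, 426 at 60 min alone, 277 at 120 min alone and 457 at 1.5-fold or more. The 426 calls at 60 min became 0 to 612 without 1 array, 642 at a mean of at least 5, 86 over all probe sets, 1592 over 24 arrays and 1076 with a trend; the 277 at 120 min became 6 to 471, 426, 82, 1086 and 712 under the same settings. The 0 calls for 120 minus 60 min became 0 to 359 without 1 array and 1 with a trend. The 138 calls for late minus early became 9 to 363 without 1 array, 259 at a mean of at least 5, 43 over all probe sets and 464 with a trend, and the 442 early calls became 68 to 191, 683, 189 and 1045. The 0 calls against si-miR-20a stayed at 0 without any 1 array and became 219 over 24 arrays and 9 with a trend. With the replicate number as a block, although the numbers were not taken to pair the arrays, the counts were 1278 over both times, 44 at 60 min, 52 at 120 min and 74 for late minus early. Of 115 called named genes 66 were called without any 1 array, and none of the 115 changed sign under any alternative. Genes that were not called did: GPLD1 was 0.3277 at 120 min alone. Without 1 array CLIC5 ran from -0.0871 to 0.279, LOC284379 from -0.015 to 0.284, PPP1R14D from -0.2273 to 0.069, TAS2R60 from -0.0066 to 0.4403, ZFP92 from -0.03 to 0.3542, STK31 from -0.0168 to 0.2369 and FOXM1 from -0.0076 to 0.1508. With array weights CLIC5 was -0.0244, LOC284379 -0.0304, ZFP92 -0.0704 and STK31 -0.0092. At 60 min alone CLIC5 was -0.6216, LOC284379 -0.4828, TAS2R60 -0.6342, ZFP92 -0.5308 and STK31 -0.3719, and PPP1R14D was 0.5147 at 120 min alone. The causes were not tested. The number of arrays limits the precision of every value.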
